A study of Mus musculus with 6 samples.

Results

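Complex I of the respiratory chain was followed at the level of its transcripts in mouse 3T3-L1 cells. The genes were those deposited as protein-coding with a symbol that begins with Nduf, and the 7 ND genes of the mitochondrial genome. The rule took 58 of the 21436 genes in the deposited table, 51 in the nuclear and 7 in the mitochondrial genome. The nuclear set held 37 structural subunits, 8 assembly factors named Ndufaf, the relatives Ndufa4 and Ndufa4l2, and 4 further copies or paralogues of subunit genes (Ndufb4b, Ndufb4c, Ndufs6b and Ndufab1-ps). 3T3-L1 is an established mouse embryonic fibroblast line whose cells are preadipocytes, and all 6 libraries came from this 1 line, wild type. In the alone group (3 libraries) the cells grew by themselves in the lower chamber of a Transwell, and in the co-culture group (3 libraries) human umbilical cord mesenchymal stem cells (MSCs) sat in the upper chamber, behind pores of 0.4 µm. Both groups spent 72 h in the same adipogenic medium, which was high-glucose DMEM with 10% FBS, insulin at 10 mg/L, IBMX at 0.5 mmol/L, dexamethasone at 1 µmol/L and rosiglitazone at 2 µmol/L. The question was how the presence of the MSCs changed expression in the 3T3-L1 cells. Nothing in the labels ties the libraries of a group to separate cultures. Each p-value therefore covers the spread among these libraries, which may be technical.

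Complex I is the entry point of the respiratory chain for electrons from NADH, which it passes through flavin and iron-sulphur centres to ubiquinone while it pumps protons across the inner mitochondrial membrane. Its core is encoded by both genomes: the nuclear core subunits form the arm that binds NADH and quinone, and the ND proteins form the proton-pumping membrane arm, around which nuclear accessory subunits are fitted with the help of assembly factors. The ND genes are copied as parts of long mitochondrial transcripts that are cut into messenger RNAs, whereas the nuclear genes are copied into separate transcripts. Adipogenesis is known for an increase in mitochondrial content.

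Expression is given in FPKM as deposited by the authors, that is, fragments per kilobase of a gene scaled to the total of its library. Library totals recovered from the values were 36119750 to 38357563 reads in the alone group and 29603755 to 37612585 in the co-culture group. The fibroblast and preadipocyte markers were all present (10 of 10 over 1 FPKM, summing to 4501 to 4678 FPKM alone and 4584 to 4658 in co-culture). Of these 10, 4 were called higher and 2 lower in co-culture by the limma fit below, against 13.9% and 17.9% of all tested genes. Of 8 adipocyte markers measured, 2 were over 1 FPKM, with sums of 271 to 291 FPKM alone and 242 to 253 in co-culture. The libraries thus carried preadipocyte markers and few of mature adipocytes. The 2 went in opposite directions: Lpl was called lower (226 FPKM alone, 190 in co-culture). Fabp4 was not called (53.4 and 58.2 FPKM), though its groups did not overlap. Macrophage markers (2 of 7 over 1 FPKM) summed to 16.2 to 20.0 FPKM alone and 15.1 to 18.3 in co-culture, and the endothelial and epithelial lists had 0 members over 1 FPKM. Blood cell markers (4 of 9 over 1 FPKM) summed to 19.8 to 36.3 FPKM alone and 3.82 to 21.2 in co-culture. Whether these transcripts came from cells in the cultures was not tested, nor was their part in the results. In bulk RNA fewer cells of a type and less RNA per cell cannot be told apart.

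The ND genes lie end to end on mitochondrial DNA, and their ends bear on how reads can be assigned. In the GENCODE M21 transcripts (GRCm38), ND4L (M:9877-10173, plus strand) ends inside ND4 (M:10167-11544, plus strand), and ND5 (M:11742-13565, plus strand) runs into ND6 (M:13552-14070, minus strand), the only ND gene on that strand. The 30 bases at these ends are given here, each read 5′ to 3′ on its own gene's strand, with the overlapped bases in capitals: 7 bases shared by ND4L and ND4, and 14 bases where ND5 and ND6 are antisense to each other.
ND4L, last 30 bases (chrM:10144-10173, plus strand): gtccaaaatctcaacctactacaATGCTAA
ND4, first 30 bases (chrM:10167-10196, plus strand): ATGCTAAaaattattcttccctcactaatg
ND5, last 30 bases (chrM:13536-13565, plus strand): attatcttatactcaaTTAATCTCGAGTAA
ND6, last 30 bases (chrM:13552-13581, minus strand): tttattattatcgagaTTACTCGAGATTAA
The sources used here do not give the strand setting of the counting. Reads of ND5 and ND6 in the overlap therefore cannot be told apart.

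In co-culture 3 ND transcripts rose, those for ND1, ND2 and ND4L, by 1.22- to 1.34-fold, and 0 of the 7 fell (also 0 at an unadjusted limma p below 0.05, and 0 by limma-voom on the recovered reads). By limma on log2(FPKM + 1) with Benjamini-Hochberg adjustment over 10055 tested genes, 3 of 7 ND genes were called higher at an adjusted p below 0.05, against 13.9% of all tested genes called higher, 17.9% called lower and 31.8% called in either direction. The median log2 change of the 7 was 0.12 (range −0.22 to 0.41), beside −0.0037 for all tested genes. Groups did not overlap, with co-culture higher, for 5 of the 7 ND genes, against 21.3% of tested genes in that direction, 24.8% in the other and 46.1% in either. A log2 change here is on the log2(FPKM + 1) scale.

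ND1 (M:2751-3707, plus strand), the subunit at the joint of the arms next to the quinone tunnel, had 5765, 5456 and 5224 FPKM in the alone libraries and 6432, 6665 and 6990 FPKM in the co-culture libraries, each in the order of replicates 1 to 3, as in all later lists. All 3 co-culture libraries lay above all 3 alone libraries. The means were 5482 ± 271 and 6696 ± 281 FPKM (SD, n = 3 each), 1.22-fold higher in co-culture, with a log2 change of 0.29 (SE 0.060, limma with Benjamini-Hochberg adjusted p = 0.00445). Without the filter on low values the log2 change was the same and the adjusted p was 0.142.

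ND2 (M:3914-4951, plus strand), one of the proton-pumping subunits, had 3283, 3141 and 3068 FPKM alone and 4133, 4138 and 4354 FPKM in co-culture. Every co-culture value was above every alone value. ND2 rose 1.33-fold, from 3164 ± 110 to 4208 ± 126 FPKM (SD, n = 3 each; log2 change 0.41, SE 0.051, limma with Benjamini-Hochberg adjusted p = 2.19e-04). The order of the ND genes by level changed at this point: alone, ND5 (3397 to 3459 FPKM) stood above ND2 (3068 to 3283 FPKM) without overlap, and in co-culture ND2 (4133 to 4354 FPKM) stood above ND5 (3624 to 3802 FPKM) without overlap.

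ND4L, the smallest ND subunit by transcript length, had 32.4, 34.4 and 33.0 FPKM alone and 45.9, 44.8 and 42.9 FPKM in co-culture. The groups stood apart. Its mean went from 33.3 ± 1.02 to 44.6 ± 1.52 FPKM (SD, n = 3 each), a 1.34-fold rise (log2 change 0.41, SE 0.040, limma with Benjamini-Hochberg adjusted p = 4.00e-05), on 1110 reads alone and 1381 in co-culture. ND2 and ND4L kept their calls in all 20 settings tried, and ND1 in 18 of 20.

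The pumping subunits ND4 and ND5 moved less and did not pass the test. ND4 had 1693, 1650 and 1553 FPKM alone and 1755, 1772 and 1809 FPKM in co-culture, a log2 change of 0.12 (95% confidence interval 0.02 to 0.23, limma with Benjamini-Hochberg adjusted p = 0.0613). ND5 had 3424, 3459 and 3397 FPKM alone and 3624, 3802 and 3691 FPKM in co-culture, a log2 change of 0.11 (interval 0.01 to 0.22, limma with Benjamini-Hochberg adjusted p = 0.0902). For both genes the groups did not overlap, with co-culture 1.09- and 1.08-fold higher. Without alone replicate 1 both passed, with limma and Benjamini-Hochberg adjusted p of 0.00795 for ND4 and 0.0186 for ND5, which made 5 of 7 ND genes higher; limma-voom on the recovered reads also called both (0.0220 and 0.0234).

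ND3 and ND6 overlapped between groups. ND3 (M:9459-9806, plus strand), a short subunit with a loop near the quinone site, had 24.7, 21.7 and 27.3 FPKM alone and 28.1, 25.7 and 22.2 FPKM in co-culture (log2 change 0.04, interval −0.15 to 0.24, limma with Benjamini-Hochberg adjusted p = 0.735). ND6, encoded on the opposite strand, had 153, 177 and 207 FPKM alone and 195, 105 and 172 FPKM in co-culture. Its co-culture values held both the second highest and the lowest of the 6, and its log2 change of −0.22 had an interval from −0.63 to 0.19 (limma with Benjamini-Hochberg adjusted p = 0.387).

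**Figure D1:**
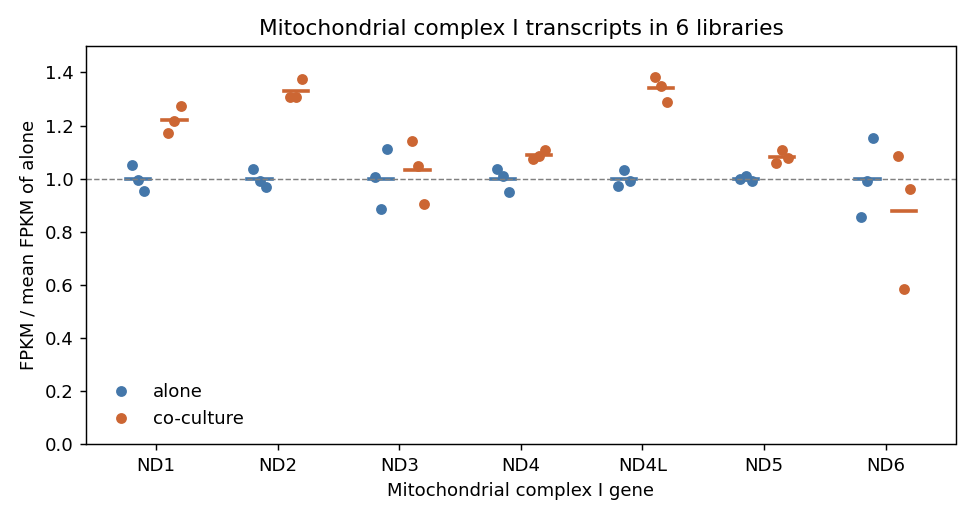
FPKM of the 7 ND genes in each library divided by the gene's mean FPKM in the alone group, so that 1 (dashed) is the alone mean; points are libraries, 3 alone and 3 co-culture, and bars are group means. Co-culture points lie above all alone points for ND1, ND2, ND4L, ND4 and ND5, and the groups overlap for ND3 and ND6.

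The other 6 protein genes of the mitochondrial genome gave 0 calls by limma with Benjamini-Hochberg adjustment, 0 at an unadjusted p below 0.05 and 0 by limma-voom. COX1, the catalytic subunit of cytochrome c oxidase, had 14859 ± 368 FPKM alone and 15500 ± 207 in co-culture (SD, n = 3 each; log2 change 0.06, limma with Benjamini-Hochberg adjusted p = 0.482). CYTB, the cytochrome of complex III, had 4057 ± 91.9 and 4358 ± 204 FPKM (log2 change 0.10, limma with Benjamini-Hochberg adjusted p = 0.167), with groups that did not overlap. COX2, COX3, ATP6 and ATP8 overlapped between groups, with log2 changes from −0.17 to 0.07. In map order, ND1 and ND2 are the first protein genes on the plus strand, ahead of COX1, and ND4L follows ND3.

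Relative to COX1 within the same library, ND2 went from 0.213 ± 0.00268 alone to 0.271 ± 0.00652 in co-culture (SD, n = 3 each), and ND1 from 0.369 ± 0.0103 to 0.432 ± 0.0133. The ND4 to COX1 ratio was 0.110 alone and 0.115 in co-culture, and that of ND5 to COX1 was 0.231 and 0.239. Groups did not overlap for any of these 4 ratios, and the change was 1.28-fold for ND2, 1.17-fold for ND1 and 1.04-fold for both ND4 and ND5. For ND5 the groups nearly touched, with a highest alone ratio of 0.2357 and a lowest co-culture ratio of 0.2360. For ND4 these were 0.1124 and 0.1136. The ratio of ND1 to ND5 was 1.60 ± 0.0754 alone and 1.81 ± 0.0758 in co-culture, without overlap, whereas ND4 to ND5 was 0.476 and 0.480, with overlap. These ratios are descriptions with no test, since 3 libraries against 3 cannot give a permutation p below 0.1.

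**Figure D2:**
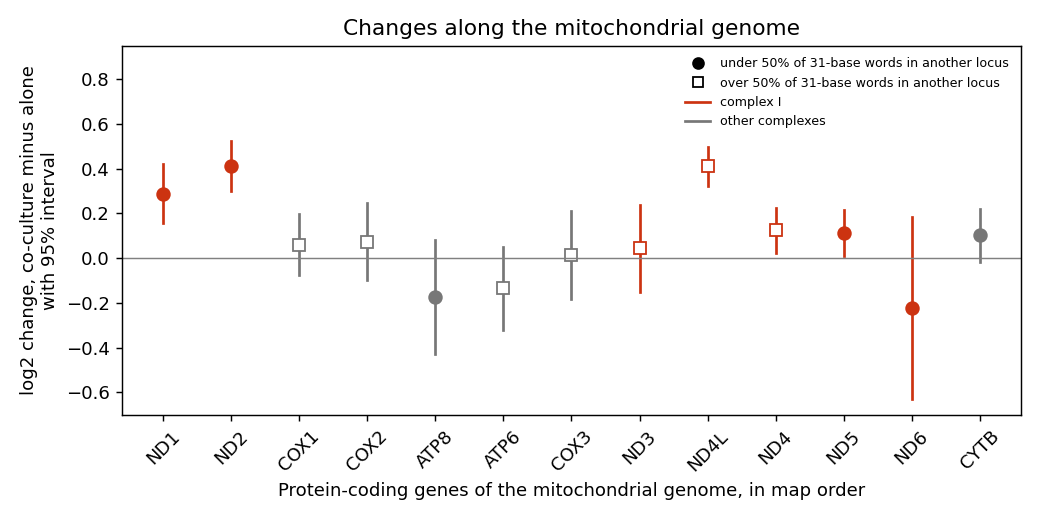
Log2 change (co-culture minus alone) with 95% confidence intervals for the 13 mitochondrial protein genes in map order, with ND genes in red and the other genes in grey, and open squares for genes with over 50% of 31-base words in another locus. ND1, ND2 and ND4L stand highest, at 0.29, 0.41 and 0.41, and the widest interval is that of ND6.

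The ND genes ranged in level from 25.0 FPKM (ND3) to 6089 FPKM (ND1), as means over the 6 libraries. They also differed in how much sequence they share with annotated transcripts of other loci. Nuclear copies without an annotated transcript were not searched, so a low share may miss some. Of the 31-base words in the ND transcripts, 98.1% of those of ND3 and 98.9% of those of ND4L were also found in mitochondrial pseudogenes on chromosome 1 (Gm28438 and Gm10222). The share was 62.8% for ND4, all of it in Gm28439 (chr1:24611535-24612410) and within the first 876 bases of ND4. It was 16.8% for ND5, 13.5% for ND2, 7.36% for ND6 and 0% for ND1. ND3 and ND4L, with the highest shares, had the lowest levels of the ND genes, and ND1, with no shared words found, had the highest. Levels did not follow the shares throughout. ND4 stood at 1705 FPKM with 62.8%, and ND6 at 168 FPKM with 7.36%. Outside complex I, COX1 stood at 15179 FPKM with 63.9%, and ATP8 at 15.1 FPKM with 7.47%. Whether shared sequence bears on the levels was not tested. The sources used here do not say how reads that fit several places were counted. The levels of ND3, ND4L and ND4 are therefore uncertain, and the part of shared sequence in the ND4L difference was not tested. The same limit holds for other mitochondrial genes set beside them: the share was 63.9% for COX1, the denominator of the ratios above, 100% for COX2, 99.9% for COX3 and 99.5% for ATP6, but 7.47% for ATP8 and 6.55% for CYTB.

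The nuclear genes for complex I showed small changes in both directions. Of 51 genes, 48 had a mean of at least 1 FPKM and were tested. By limma with Benjamini-Hochberg adjustment 4 were higher in co-culture, 1 was lower and 43 were not called, against 13.9% and 17.9% of all tested genes. The median log2 change of the 48 was −0.01 (range −0.25 to 0.26), with 21 above and 27 below 0. The absolute log2 change was under 0.1 in 35 genes and under 0.2 in 44, and the 95% interval lay within ±0.3 in 41 of 48. The groups did not overlap for 7 genes with co-culture higher and 3 with co-culture lower, against 21.3% and 24.8% of tested genes.

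**Figure D3:**
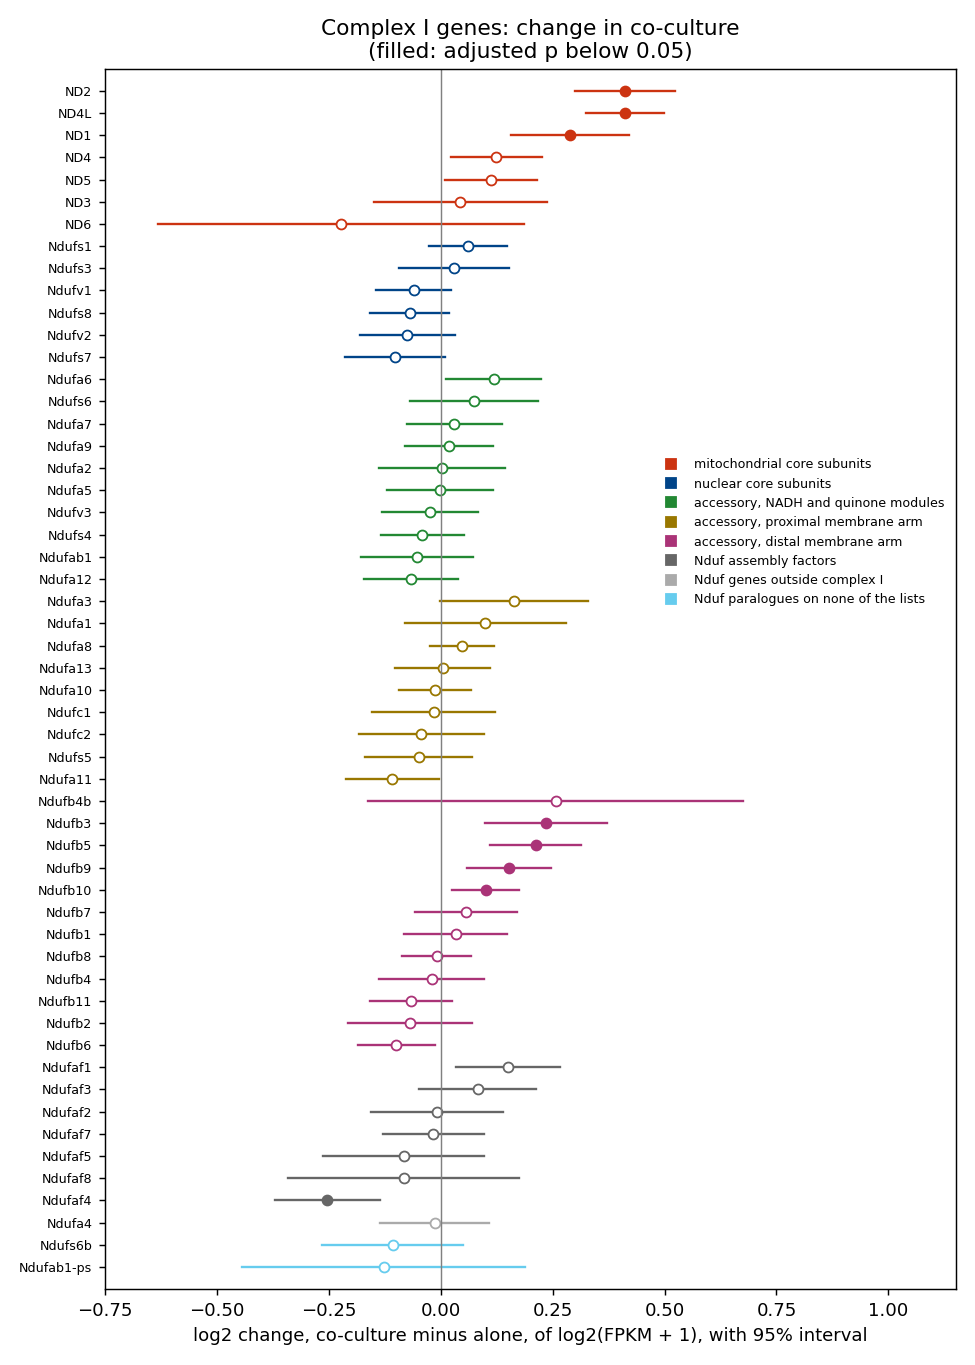
Log2 change (co-culture minus alone) with 95% confidence intervals for 54 of the tested nuclear and mitochondrial complex I genes, grouped and coloured by role. Filled points are called genes: 4 genes of the distal membrane arm and 3 ND genes higher, and the assembly factor Ndufaf4 lower.

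The 7 nuclear core subunits, the partners of the ND proteins in the catalytic core, gave 0 calls, with a median log2 change of −0.06. The 6 described here had log2 changes from −0.10 to 0.06 and 95% intervals between −0.21 and 0.15. At an unadjusted limma p below 0.05, and by limma-voom, the count of calls among the 7 was also 0. At the NADH end, Ndufv1, which holds the flavin, had 52.8, 49.7 and 51.2 FPKM alone and 50.4, 47.5 and 49.3 in co-culture (log2 change −0.06, limma with Benjamini-Hochberg adjusted p = 0.251). Ndufv2, an iron-sulphur protein beside it, had 80.9, 76.1 and 69.9 FPKM alone and 71.7, 71.2 and 72.0 in co-culture (log2 change −0.07, adjusted p = 0.265 by the same limma fit). Ndufs1, which carries further iron-sulphur clusters, had 20.3, 19.4 and 19.1 FPKM alone and 20.6, 20.2 and 20.7 in co-culture (log2 change 0.06, adjusted p = 0.265 by the same limma fit). All 3 genes overlapped between groups. Without alone replicate 3 Ndufv2 was called lower (log2 change −0.13, limma with Benjamini-Hochberg adjusted p = 0.0430).

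Of the core subunits at the quinone end, Ndufs7, which lines the quinone pocket, had 21.6, 19.7 and 19.6 FPKM alone and 19.9, 18.3 and 18.3 in co-culture (log2 change −0.10, limma with Benjamini-Hochberg adjusted p = 0.149). Ndufs8, the last iron-sulphur carrier before Ndufs7, had 31.4, 31.1 and 31.5 FPKM alone and 28.6, 29.6 and 31.3 in co-culture (log2 change −0.07, adjusted p = 0.215 by the same limma fit). Ndufs3, a scaffold of the quinone module, had 56.2, 47.7 and 49.5 FPKM alone and 53.6, 52.4 and 50.3 in co-culture (log2 change 0.03, adjusted p = 0.721 by the same limma fit). Ndufs7, Ndufs8 and Ndufs3 overlapped between groups.

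The 10 accessory subunits of the NADH and quinone modules (Ndufa2, Ndufa5, Ndufa6, Ndufa7, Ndufa9, Ndufa12, Ndufab1, Ndufs4, Ndufs6 and Ndufv3) gave 0 calls by limma and by limma-voom, with log2 changes from −0.07 to 0.12, and 1 had an unadjusted limma p below 0.05. That was Ndufa6, a subunit that binds the acyl carrier protein, at 216 FPKM alone and 235 in co-culture (log2 change 0.12, interval 0.01 to 0.22, limma with Benjamini-Hochberg adjusted p = 0.0836). Ndufs4, whose human gene is mutated in Leigh syndrome, had 40.8 and 39.6 FPKM (log2 change −0.04, interval −0.13 to 0.05). Ndufab1, the mitochondrial acyl carrier protein, had 14.5 and 13.9 FPKM (log2 change −0.05, interval −0.18 to 0.07).

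The 9 accessory subunits of the proximal membrane arm (Ndufa1, Ndufa3, Ndufa8, Ndufa10, Ndufa11, Ndufa13, Ndufc1, Ndufc2 and Ndufs5), which surround ND1, ND2, ND3, ND4L and ND6, also gave 0 calls by limma and by limma-voom, with log2 changes from −0.11 to 0.16, and 1 (Ndufa11) had an unadjusted limma p below 0.05. Ndufa3 had 129 FPKM alone and 144 in co-culture (log2 change 0.16, limma with Benjamini-Hochberg adjusted p = 0.120). Ndufa11, a membrane subunit at the contact with complex III, had 13.4 and 12.4 FPKM, with groups that did not overlap (log2 change −0.11, limma with Benjamini-Hochberg adjusted p = 0.103). Ndufa13, also known as GRIM-19, was at 55.5 FPKM in both groups (log2 change 0.00, interval −0.10 to 0.11).

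In the main fit the 4 nuclear genes that rose were Ndufb5, Ndufb3, Ndufb9 and Ndufb10. All belonged to the distal membrane arm, whose Ndufb subunits surround ND4 and ND5. They were 4 of 12 tested genes on that list, whose median log2 change was 0.04, against 13.9% of all tested genes called higher. In some other settings genes outside this arm were called higher too. Ndufa6 was, under TPM scaling, array weights and gene length correction (limma adjusted p = 0.0420, 0.0174 and 0.0345). Ndufa3 was, under quantile scaling and array weights (limma adjusted p = 0.0339 and 0.0288). Ndufb5 (chr3:32737057-32751559, plus strand, GRCm38.p6), a membrane-spanning subunit, had 44.6, 43.3 and 39.7 FPKM alone and 48.1, 50.4 and 49.7 in co-culture. The groups did not overlap. Its mean rose 1.16-fold, from 42.5 ± 2.58 to 49.4 ± 1.19 FPKM (SD, n = 3 each; log2 change 0.21, SE 0.046, limma with Benjamini-Hochberg adjusted p = 0.00581). It kept this call in all 20 settings tried. Exons of Ndufb5 overlap those of Mrpl47 on the opposite strand, so reads there are uncertain without strand.

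Ndufb3 (chr1:58586397-58595964, plus strand), a small membrane subunit, had 46.2, 37.8 and 40.7 FPKM alone and 49.6, 47.4 and 49.8 in co-culture. The co-culture libraries were all higher, though alone replicate 1 came close to them. The rise was 1.18-fold, from 41.6 ± 4.30 to 49.0 ± 1.32 FPKM (SD, n = 3 each; log2 change 0.24, SE 0.062, limma with Benjamini-Hochberg adjusted p = 0.0152). The call was lost without alone replicate 2 (limma adjusted p = 0.0508), without co-culture replicate 3 (0.0526) and without the filter on low values (0.112).

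Ndufb9 (chr15:58933801-58939516, plus strand), a subunit of the LYR protein family, had 204, 185 and 201 FPKM alone and 219, 213 and 223 in co-culture. The groups did not overlap. It rose 1.11-fold, from 197 ± 9.95 to 219 ± 4.92 FPKM (SD, n = 3 each; log2 change 0.15, SE 0.042, limma with Benjamini-Hochberg adjusted p = 0.0193). The call was lost when alone replicate 2 was left out (limma adjusted p = 0.0761), when the first (0.0617) or the third (0.0780) co-culture library was left out, and without the filter on low values (0.0851). Exons of Ndufb9 overlap those of Gm49356 on the same strand, so reads there are uncertain.

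Ndufb10 (chr17:24722060-24724423, minus strand), a disulphide-bonded subunit on the intermembrane side, had 120, 120 and 116 FPKM alone and 124, 128 and 130 in co-culture. The groups did not overlap, but the step was small, 1.07-fold (log2 change 0.10, SE 0.034, limma with Benjamini-Hochberg adjusted p = 0.0446). This call was the least stable of the 4: it was lost in 11 of 20 settings, among them each removal of a library other than alone replicate 1 (limma adjusted p from 0.0588 to 0.162).

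Of the other 8 tested genes on the distal list, Ndufb1, Ndufb2, Ndufb4, Ndufb6, Ndufb7, Ndufb8 and Ndufb11 had log2 changes from −0.10 to 0.06. Ndufb6 came nearest the threshold, with groups that did not overlap at 39.4 FPKM alone and 36.7 in co-culture (log2 change −0.10, limma with Benjamini-Hochberg adjusted p = 0.0773), in the direction opposite to the 4 that rose. The eighth, Ndufb4b, a low-level copy of Ndufb4, had the largest absolute log2 change of the tested nuclear members, 0.26, but 2.13, 2.76 and 2.10 FPKM alone and 1.94, 2.71 and 4.72 in co-culture. Its change rested on co-culture replicate 3, its groups overlapped, and its interval ran from −0.16 to 0.68 (limma with Benjamini-Hochberg adjusted p = 0.330).

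Among 7 tested assembly factors named Ndufaf, Ndufaf4 fell and 6 were not called (median log2 change −0.02), against 17.9% of all tested genes called lower. Ndufaf4 (chr4:24898083-24905001, plus strand), which works with Ndufaf3 on the quinone module, had 7.80, 7.36 and 7.27 FPKM alone and 5.78, 6.43 and 6.14 in co-culture. Each co-culture library was below each alone library. The mean was 1.22-fold lower, 6.11 ± 0.326 against 7.48 ± 0.280 FPKM (SD, n = 3 each; log2 change −0.25, SE 0.053, limma with Benjamini-Hochberg adjusted p = 0.00470), and the call held in all 20 settings tried.

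Its partner Ndufaf3 had 4.35 FPKM in the alone group and 4.67 in co-culture (log2 change 0.08, interval −0.05 to 0.21). Ndufaf1, which acts with Acad9 and Ecsit on the part of the membrane arm around ND2, missed the threshold, with 9.56 and 10.7 FPKM, groups that did not overlap and a log2 change of 0.15 (limma with Benjamini-Hochberg adjusted p = 0.0513). Ndufaf1 was called higher under median-ratio, nuclear and quantile scaling and with a filter of 5 FPKM (limma adjusted p from 0.0259 to 0.0459). Ndufaf2, Ndufaf5, Ndufaf7 and Ndufaf8 had log2 changes from −0.08 to −0.01.

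The members beside the complex did not pass the test either. Ndufa4, now counted as a subunit of cytochrome c oxidase, had 222 FPKM alone and 219 in co-culture (log2 change −0.01, interval −0.14 to 0.11). The paralogues Ndufs6b and Ndufab1-ps had 3.36 and 4.03 FPKM alone and 3.04 and 3.71 in co-culture. Though deposited as protein-coding, Ndufs6b is typed as a processed pseudogene in GENCODE M21. It holds 17.5% of the 31-base words of Ndufs6, so its reads are uncertain. Without co-culture replicate 1, Ndufab1-ps was called lower and Ndufb4b higher (limma with Benjamini-Hochberg adjusted p = 0.0323 and 0.0484).

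The 3 other members lay under the filter of 1 FPKM. Ndufa4l2, a hypoxia-inducible relative of Ndufa4, had 0.183, 0.240 and 0.339 FPKM alone and 0.176, 0.162 and 0.140 in co-culture, on 33 and 19 reads. Ndufaf6, an assembly factor, had 0.918, 0.932 and 0.744 FPKM alone and 0.862, 0.660 and 0.727 in co-culture. Ndufb4c, a copy of Ndufb4, had 0.870, 0.799 and 1.08 FPKM alone and 0.557, 0.713 and 0.221 in co-culture, on 50 and 25 reads. GENCODE M21 types Ndufb4c as a processed pseudogene, and it holds 38.3% of the 31-base words of Ndufb4. Ndufa4l2 and Ndufb4c had all 3 co-culture values below all 3 alone values, on few reads, and Ndufaf6 overlapped.

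Levels of the 37 structural nuclear subunits were of the same order across modules, with means over the 6 libraries from 11.6 FPKM (Ndufb2) to 233 FPKM (Ndufa7) and a median of 54.8. The least-read of these, Ndufb2, had 2123 reads over the 6 libraries. The genes were short, with a median recovered length of 845 bp against 3529 bp for all tested genes. They are spread out as well: the 51 nuclear members lie on 18 chromosomes. Processed copies also bear on them. Of 46 with a protein-coding GENCODE transcript, 10 shared over 10% of 31-base words with annotated transcripts of other loci. The highest shares were those of Ndufs3 (49.3%), Ndufb4 (38.3%) and Ndufs5 (36.0%). The values of the called genes were 0% for Ndufb5, Ndufb9 and Ndufb10, 1.72% for Ndufaf4 and 13.5% for Ndufb3.

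The nuclear members that passed the test were 4 upward and 1 downward. Whether any of them shares a promoter region with a neighbouring gene was not examined. Their upstream sequence is shown so that the 4 in the RefSeq table (GRCm38.p6) can be set side by side. The 150 bases before each start site of that table are given 5′ to 3′ on the gene's strand (for Ndufb5 that site lies just inside the gene span printed above, so its last bases fall within the span), with capitals for a match to the motif of the respiratory-gene activator NRF1. Ndufb9 is not shown.
Ndufb5 (chr3:32736913-32737062, plus strand): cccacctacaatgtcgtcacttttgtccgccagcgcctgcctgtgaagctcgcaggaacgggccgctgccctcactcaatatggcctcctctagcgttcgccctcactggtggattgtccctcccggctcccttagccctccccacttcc
Ndufb3 (chr1:58586247-58586396, plus strand): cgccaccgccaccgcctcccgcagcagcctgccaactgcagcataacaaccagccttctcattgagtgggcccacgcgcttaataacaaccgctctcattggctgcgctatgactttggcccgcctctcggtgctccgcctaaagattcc
Ndufb10 (chr17:24724424-24724573, minus strand): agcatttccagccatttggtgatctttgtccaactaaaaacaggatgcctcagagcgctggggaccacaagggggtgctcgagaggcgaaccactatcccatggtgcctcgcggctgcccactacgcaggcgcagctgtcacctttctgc
Ndufaf4 (chr4:24897933-24898082, plus strand): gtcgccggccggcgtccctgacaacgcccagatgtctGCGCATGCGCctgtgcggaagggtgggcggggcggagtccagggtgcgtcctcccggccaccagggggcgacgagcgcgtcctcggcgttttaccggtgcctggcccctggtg
The motif searched was GCGCATGCG on both strands, and in Ndufaf4 matches on the 2 strands overlap, within the run in capitals.

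Promoter windows of 250 bases before to 50 after the start were in that RefSeq set for 42 of the 51 nuclear members (44 windows), among 32851 windows in all. The NRF1 letters GCGCATGCG were in the windows of 4 members, Ndufa8, Ndufa11, Ndufaf4 and Ndufaf5, or 9.09% of member windows against 1.75% of all windows. The YY1 letters AAGATGGCG were in those of 6 members (Ndufa9, Ndufaf8, Ndufc1, Ndufs4, Ndufs6 and Ndufs7), 13.6% against 1.40%. CCGGAAGT, for the ETS factor GABP, was in 1 member's window (Ndufs3, 2.27% against 3.89%), and TCAAGGTCA, for the nuclear receptor ERRα, was in 0 (0.423% of all windows). The windows of Ndufb5, Ndufb3 and Ndufb10 held none of the 4 motifs, and of the genes with a match only Ndufaf4 was called. The member windows had a median GC content of 59.3%, against 52.7% over all windows. These matches are letters in a window and describe no binding.

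Set against each other, the summed level of the 7 ND genes was higher in co-culture and that of the nuclear members was not apart. The ND sum was 13941 ± 434 FPKM alone and 16615 ± 438 in co-culture (SD, n = 3 each), 1.19-fold higher without overlap. The nuclear sum was 2859 ± 161 and 2929 ± 44.0 FPKM, with overlap. The ratio of the ND sum to the nuclear sum was 4.72, 5.07 and 4.85 in the alone libraries and 5.55, 5.73 and 5.74 in the co-culture libraries. All co-culture ratios were above all alone ratios, 1.16-fold in the mean (4.88 ± 0.175 and 5.67 ± 0.104). The sum is dominated by ND1, ND2, ND5 and ND4. A ratio of medians in its place, in which ND4 was the ND median of every library, moved 1.10-fold. As a score over chosen members the ratio has no test.

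In shares of reads, the ND genes took 1.71 ± 0.0479% of the library alone and 2.01 ± 0.0474% in co-culture (SD, n = 3 each), without overlap. The other 6 mitochondrial protein genes took 2.79 ± 0.0681% and 2.92 ± 0.0534%, with overlap. The ND genes thus made up 38.1% of the reads of the 13 mitochondrial protein genes alone and 40.8% in co-culture. The nuclear members took 0.243 ± 0.0117% and 0.246 ± 0.00296%, with overlap.

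**Figure D4:**
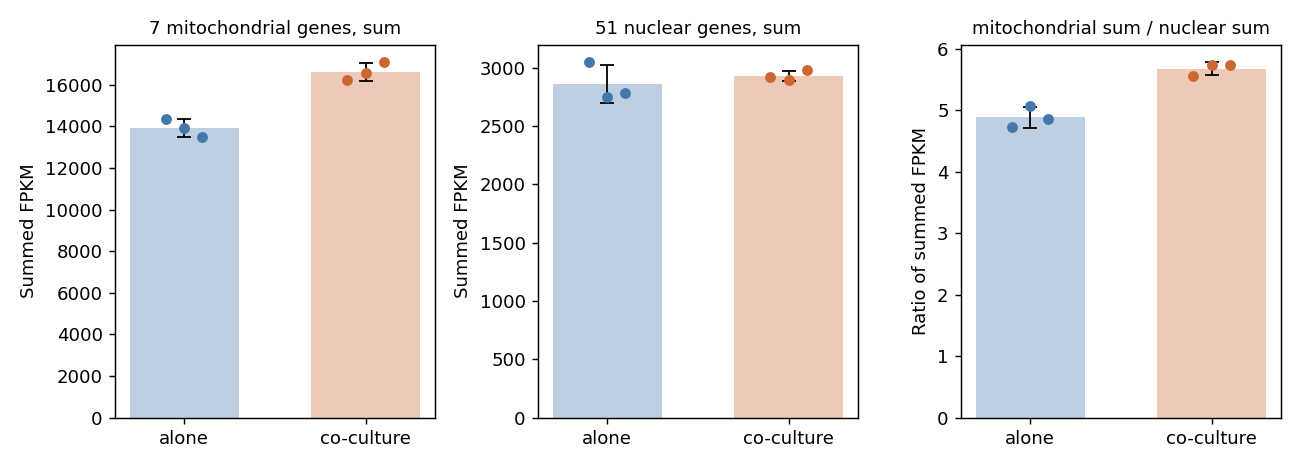
Summed FPKM of the 7 ND genes and of the nuclear complex I genes, and their ratio; points are the 6 libraries, bars are group means and error bars are SD (n = 3). The ND sum and the ratio are higher in all 3 co-culture libraries, and the nuclear sums overlap.

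Among the nuclear members, alone replicate 1 stood apart from the other alone libraries, and it did so over all tested genes as well. There the mean chi-square per gene of recovered reads was 11.0 and 14.3 between it and alone replicates 2 and 3. Between alone replicates 2 and 3 the value was 4.24, and between co-culture libraries 3.70 to 5.45. Alone replicate 1 was the highest of the 6 libraries for 26 of 48 tested nuclear members (54.2%), against 20.9% of all tested genes. Of the alone libraries it was the highest for 37 of 48. The median deviation of the nuclear members from their gene means was 0.08 on the log2 scale in alone replicate 1, −0.04 in each of alone replicates 2 and 3, and 0.00 to 0.02 in co-culture. The 612 tested genes under 1000 bp showed like medians in the alone libraries (0.06, −0.04 and −0.06), while all tested genes were within 0.01. Without this library 7 nuclear genes were called higher, the 4 named above with Ndufa1, Ndufa3 and Ndufa6 (limma with Benjamini-Hochberg adjusted p = 0.0418, 0.0168 and 0.00912). Without alone replicate 2 only Ndufb5 was called higher, and without co-culture replicate 3 the 2 called were Ndufb5 and Ndufaf1, so the nuclear count of 4 depended on single libraries.

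**Figure D5:**
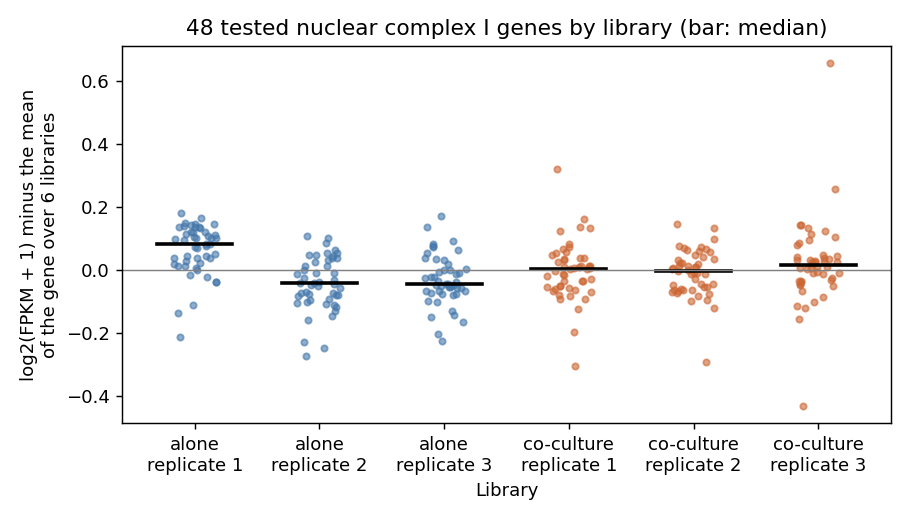
Deviation of log2(FPKM + 1) from the gene's mean over 6 libraries, for the 48 tested nuclear complex I genes (points) in each library, with the median as a bar. The median is 0.08 in alone replicate 1 and lies between −0.04 and 0.02 in the other libraries.

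Of 14 tested complex I assembly factors with other names, 1 was higher and 2 were lower by limma with Benjamini-Hochberg adjustment (median log2 change −0.01), against 13.9% and 17.9% of all tested genes and 31.8% in either direction. Chchd4, the receptor that oxidises and imports small disulphide proteins into the intermembrane space, had 11.7, 11.3 and 11.7 FPKM alone and 7.38, 7.92 and 7.47 in co-culture. This 1.52-fold fall, without overlap, exceeded that of any tested member (log2 change −0.55, SE 0.046, limma with Benjamini-Hochberg adjusted p = 1.52e-05). Tmem126a, which acts on the ND4 module, was 36.2 ± 1.66 FPKM alone and 31.1 ± 0.949 in co-culture (SD, n = 3 each; log2 change −0.21, limma with Benjamini-Hochberg adjusted p = 0.00380). Foxred1, needed for mid and late assembly, rose from 8.13 ± 0.512 to 9.51 ± 0.396 FPKM (log2 change 0.20, limma with Benjamini-Hochberg adjusted p = 0.0171), a call lost without alone replicate 2 (0.0659) or co-culture replicate 1 (0.0650).

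Of 24 tested genes that copy or transcribe the mitochondrial genome or act on its RNA, 1 was higher and 5 were lower (limma with Benjamini-Hochberg adjustment, median log2 change −0.02). The shares of all tested genes were 13.9% higher and 17.9% lower. Ssbp1, which coats unwound mitochondrial DNA, rose from 9.96 ± 0.135 to 12.6 ± 0.0594 FPKM (SD, n = 3 each; log2 change 0.32, limma with Benjamini-Hochberg adjusted p = 2.74e-04). Trmt10c and Hsd17b10, which belong to mitochondrial RNase P, the enzyme that cuts transfer RNAs out of the long transcripts, fell. Its nuclease Prorp was not called, at 2.78 ± 0.129 FPKM alone and 2.81 ± 0.282 in co-culture (SD, n = 3 each; log2 change 0.01, interval −0.14 to 0.16, limma with Benjamini-Hochberg adjusted p = 0.923). Trmt10c had 18.1, 17.4 and 15.8 FPKM alone and 12.5, 12.7 and 12.2 in co-culture, without overlap (log2 change −0.43, limma with Benjamini-Hochberg adjusted p = 1.87e-04). Hsd17b10 had 63.0, 58.5 and 57.9 FPKM alone and 50.2, 51.1 and 52.3 in co-culture, also without overlap (log2 change −0.22, adjusted p = 0.00241 by the same limma fit).

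Pde12, which removes poly(A) from mitochondrial RNA, was 7.22 ± 0.211 FPKM alone and 6.18 ± 0.478 in co-culture (SD, n = 3 each; limma with Benjamini-Hochberg adjusted p = 0.0253). That call was lost on leaving out the first or the third library of either group (0.0546 to 0.0957), and the list's lower count was 2 to 3 with any 1 of the 6 libraries left out. Mtpap, the mitochondrial poly(A) polymerase, was also called lower, at 5.89 ± 0.119 FPKM alone and 5.20 ± 0.134 in co-culture (limma with Benjamini-Hochberg adjusted p = 0.0362). The remaining gene called lower was Fastkd5, at 3.75 and 3.10 FPKM (adjusted p = 0.0403 by the same limma fit). The mitochondrial transcription factor Tfam (11.7 and 11.9 FPKM) and the RNA polymerase Polrmt (4.53 and 4.52 FPKM) overlapped between groups and were not called.

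Of 7 tested regulators of nuclear respiratory genes, 0 were higher and 2 were lower by limma with Benjamini-Hochberg adjustment, against 13.9% and 17.9% of all tested genes. At an unadjusted p below 0.05 the counts were 0 and 3, and by limma-voom 0 and 2, where Gabpb1, a subunit of the ETS factor GABP, took the place of Esrra beside Pprc1. Pprc1, a coactivator of the PGC-1 family, was 9.83 ± 0.414 FPKM alone and 8.59 ± 0.157 in co-culture (SD, n = 3 each; log2 change −0.17, limma with Benjamini-Hochberg adjusted p = 0.0166), a call lost without alone replicate 2 (0.0683) or co-culture replicate 3 (0.0612). Esrra, the gene of ERRα, was 6.27 ± 0.0997 and 5.57 ± 0.294 FPKM (log2 change −0.15, limma with Benjamini-Hochberg adjusted p = 0.0495), and lost its call in 14 of 20 settings, among them every removal of a library except co-culture replicate 2. Ppargc1a, the gene of PGC-1α, lay under the filter, with 0.738 and 0.752 FPKM in the respective groups.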

How the data were processed

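RNA sequencing of 6 libraries was used, 3 per group. FPKM values per gene were deposited by the authors; per the submitters' processing notes, fastp, HISAT2, HTSeq and mm10 were used. The sources used here give no versions, annotation or strand setting. Per the labels' protocols, TRIzol was used for extraction and a VAHTS Universal V6 kit for the libraries. Whole reads, gene lengths and library totals were recovered from the steps of the values, scaled with the 348 bp of ND3; of 12053 genes with at least 100 reads, 100% had whole lengths within 0.001 bp. Intervals cover the spread between libraries. limma 3.58.1 in R 4.3.3 (lmFit, eBayes with a trend) was fitted to log2(FPKM + 1) of 10055 genes (mean FPKM of at least 1 over the libraries), with Benjamini-Hochberg adjustment over all of them and calls below 0.05, and was tested on simulated data. Values in every library are given for the ND genes, 6 nuclear core subunits (1 further gene of that list is counted but not reported here), called nuclear members and the 3 tested nuclear members with the largest absolute log2 change; up to 4 called genes by smallest p are named from each other list, and further members are named by their values. The members and lists were chosen with earlier results of these data known. Coordinates and promoters are from RefSeq (GRCm38.p6), mitochondrial ends and shared 31-base words from GENCODE M21 transcripts. No 2 libraries agreed within sampling noise (mean chi-square per gene of at least 3.70 within a group). The 20 settings were other pseudocounts, filters, scalings, variance models, a gene length correction, voom on recovered reads, a replicate block, a stricter threshold and each library left out.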

Additional observations from a re-analysis of the deposited data

How the results depend on the processing

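Of the changes of single genes under the alternatives, 1195 kept direction and side of the threshold, 49 lost the threshold, 30 gained it and 1 reversed. The reversal was ND5 under quantile scaling, with a log2 change of −0.10 (limma with Benjamini-Hochberg adjusted p = 7.88e-05). Quantile scaling gives each rank the same value in every library, so that ND1 has no change there by construction. ND5 stood above ND2 in every alone library and below ND2 in every co-culture library. Its value under this scaling followed its rank, while its deposited FPKM was 1.08-fold higher in co-culture. Called counts of nuclear members that were higher were 1 without the filter, 7 under quantile scaling and 1 at an adjusted p below 0.01, where 635 of all genes were higher and 1073 lower. Nuclear members called lower numbered 2 under TPM scaling and 2 with the gene length correction. The ND genes called higher numbered 5 under TPM scaling, 5 with array weights, 5 with voom on recovered reads and 5 with the length correction, where ND4 and ND5 passed; under quantile scaling 1 ND gene was lower. With 1 library left out and the filter applied to the remaining libraries, all genes numbered 919 to 1427 higher (919 without co-culture replicate 3) and 1380 to 1747 lower, nuclear members 1 to 7 higher and 1 to 2 lower, and ND genes 3 to 5 higher and 0 lower. The ratio of ND to nuclear sums moved 1.14- to 1.18-fold over these removals, and 1.10-fold with medians, where ND4 was the ND median. Apart from those named, the cause was not tested. Deviations of same-numbered libraries had correlations of −0.04, 0.11 and −0.08, and those of differently numbered pairs ran from −0.12 to 0.17. With 3 libraries per group such values cannot show whether same-numbered libraries share a batch, and the labels give only a number. With the replicate number as a block, 3 nuclear members and 3 ND genes were higher, among 1258 higher and 1640 lower genes. Scalings shifted the median of all genes by less than 0.02 on the log2 scale. Genes with few reads, such as Ndufb4b and the members under the filter, limit what can be seen at this depth.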
